A study of Homo sapiens with 8 samples.

Results

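The transcripts described here are those of the proteasome, chosen as every gene in the deposited tables whose symbol begins with PSMA, PSMB, PSMC, PSMD, PSME, PSMF or PSMG followed by a number and whose mean over the 8 libraries was at least 1 RPKM, a read density normalised by the authors for transcript length and depth. Of 19124 genes, 49 carried such a symbol and 47 reached the mean. PSMA8 and PSMB11 did not. The study transfected 2 established colorectal cancer cell lines, HCT116 and HT29, with 15 nM of siRNA by Lipofectamine 2000. The siRNAs were directed at RPL9, RPL17 or RPL27, which encode proteins of the large ribosomal subunit, or were a negative control (NC). Total RNA was taken at 48 h. There was 1 library for each line and siRNA, hence 3 RPL siRNA libraries and 1 NC library per line. Within a line a difference has no replicate check. For the tests, the lines served as replicates of an siRNA and the RPL siRNAs as replicates of a line, and nothing in the labels says how many cultures stood behind a library.

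The proteasome degrades ubiquitin-tagged proteins. Its barrel-shaped 20S core consists of outer alpha rings, which form the gate, and inner beta rings, which hold the protease sites. A 19S regulatory particle on the barrel binds ubiquitin, removes it and unfolds the substrate with a ring of ATPases, while dedicated chaperones assemble core and particle. Immune cells, and epithelial cells exposed to interferon, exchange the catalytic beta subunits for inducible ones that favour peptides for display by class I molecules. When proteasome activity is insufficient, the transcription factor NFE2L1 raises proteasome genes together, through antioxidant response elements in their promoters.

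All 8 libraries carried the epithelial markers (EPCAM, KRT8, KRT18, CDH1 and VIL1), whose summed level was 15931 to 23044 RPKM in HCT116 and 35099 to 40957 RPKM in HT29. The endothelial markers summed to at most 6.13 RPKM in HCT116 and 6.75 RPKM in HT29. The leukocyte markers summed to at most 72.0 RPKM in HCT116 and 88.2 RPKM in HT29, and the fibroblast markers to at most 424.7 RPKM in HCT116 and 437.5 RPKM in HT29, mostly from COL1A1. Each siRNA left its own target at 31.9% (RPL9), 38.5% (RPL17) and 26.7% (RPL27) of the NC level in HCT116, and at 14.7%, 18.7% and 13.7% in HT29. Steps in the low values of 1189 single-exon genes put the depth at 20.7 to 26.5 M reads a library. This depth is an estimate, since 54.4 to 63.1% of those low values were within 0.05 of a whole number of reads. One library stood apart. In the NC library of HT29 short transcripts were high and long ones low relative to the other 7 libraries (Spearman rho of -0.56 with transcript length over 14181 genes), whereas rho was 0.13 to 0.23 in each of the others, each set against the remaining libraries. Every comparison of HT29 with its NC rests on that library, the target percentages included. Under their own siRNA, RPL9, RPL17 and RPL27 had 5560, 10004.5 and 2045 RPKM in HCT116 and 5245, 8240 and 2214 RPKM in HT29. Under NC they had 17432, 25956 and 7649 RPKM in HCT116 and 35729, 43950 and 16205 RPKM in HT29. Whether knockdown was deeper in HT29 was not tested.

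Promoter sequences are shown for 5 members described further on, chosen because they hold a match to an element of known regulators of the family. The RefSeq promoter set (GRCh38.p14, 250 bases before to 50 after each start) held 51 starts of 41 members. The 9-letter core TGACNNNGC of the antioxidant response element, searched on both strands, was in 15 of these 51 starts (29.4%), and in 13.3% of the 35116 starts of all genes. The CCAAT box (CCAAT, both strands) was in 21 of the 51 (41.2%) and in 34.6% of all starts. The core of the interferon-stimulated response element, a pair of TTTC blocks with any 2 bases between them, searched on both strands, was in 7 of the 51 (13.7%), at PSMA4, PSMB4, PSMB8, PSMB10, PSME1, PSME2 and PSMG4, and in 3.57% of all starts. No matches of different motifs overlapped. The windows lie before the start and read 5′ to 3′ on the strand of the gene. Capitals mark the antioxidant-type core in PSMA4 (chr15:78540615-78540713, plus strand), an alpha ring subunit, in PSMB3 (chr17:38752592-38752690, plus strand), a structural beta subunit, and in PSMD12 (chr17:67366689-67366787, minus strand), a lid subunit. In PSMB10 (chr16:67936851-67936916, minus strand), an inducible protease, and PSME2 (chr14:24146611-24146683, minus strand), an activator subunit, capitals mark the interferon-type core, which there lies on the opposite strand and so reads as a pair of GAAA blocks. A match of letters is a description and not evidence of binding.
PSMA4: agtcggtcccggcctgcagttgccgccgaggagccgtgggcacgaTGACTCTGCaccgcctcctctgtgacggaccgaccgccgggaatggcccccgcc
PSMB3: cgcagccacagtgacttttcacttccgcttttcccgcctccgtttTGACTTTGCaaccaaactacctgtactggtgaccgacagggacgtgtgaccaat
PSMD12: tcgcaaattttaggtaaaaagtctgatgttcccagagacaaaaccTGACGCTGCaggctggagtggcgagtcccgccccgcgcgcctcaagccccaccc
PSMB10: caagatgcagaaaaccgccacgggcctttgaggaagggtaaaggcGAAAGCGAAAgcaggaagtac
PSME2: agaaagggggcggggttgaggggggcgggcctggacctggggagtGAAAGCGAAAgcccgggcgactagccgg

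The question of the first comparison is whether loss of a large-subunit protein moves proteasome transcripts. In HCT116 the family stayed near its NC level under each RPL siRNA, with an inducible protease, PSMB10, about 2-fold above NC and a recombination factor that shares the symbol pattern, PSMC3IP, below it. In HT29 most subunits of core and particle were lower than in NC, while the activators PSME3 and PSME4 and the 19S chaperone PSMD5 were higher. The 47 members had median log2 differences from NC, on the log2(RPKM + 1) scale used throughout, of 0.03, 0.07 and -0.04 under the RPL9, RPL17 and RPL27 siRNAs in HCT116, where the median over all 14281 genes tested was within 0.02 of 0. Members within 0.25 log2 of NC in HCT116 numbered 34, 33 and 35 of 47 under the RPL9, RPL17 and RPL27 siRNAs, against 34.7%, 39.6% and 38.3% of all genes. These shares are not matched for level, since the genes tested reach down to a mean of 1 RPKM and most members lie far above it. In HT29 the members' medians were -0.57, -0.65 and -0.68 under the RPL9, RPL17 and RPL27 siRNAs, and those of all genes 0.17, 0.20 and 0.19. All of these are descriptions of single libraries.

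**Figure D1:**
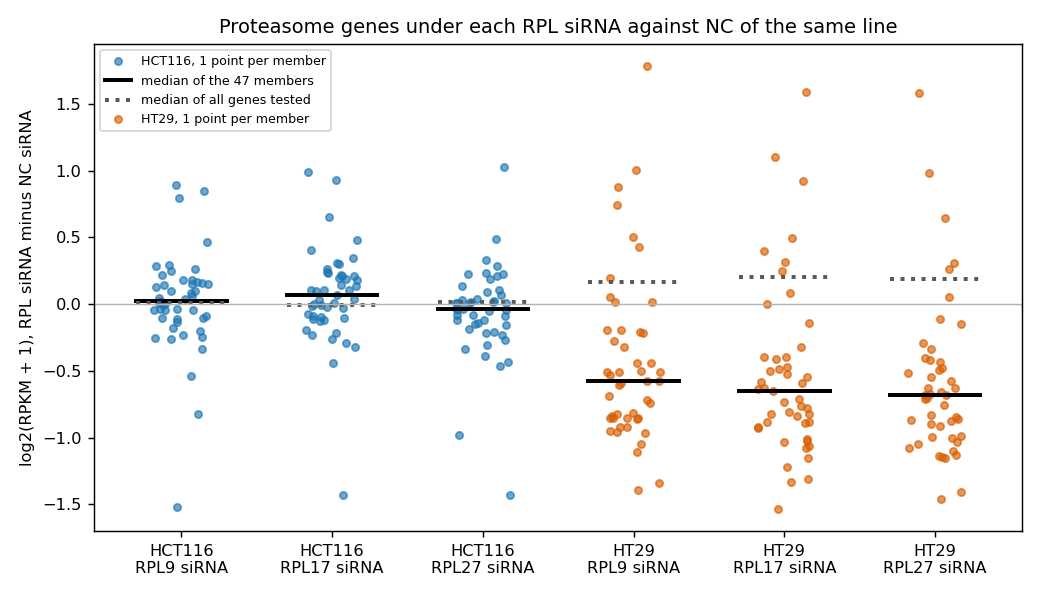
Each point is 1 of the 47 members, and the y axis is its log2(RPKM + 1) under an RPL siRNA minus that under NC of the same line. Bars give the members' median, which lies within 0.07 of 0 in HCT116 and at -0.57 to -0.68 in HT29, and dotted bars the median of all genes tested.

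A size rule of 1.5-fold was used within the lines. Under the RPL9 siRNA in HCT116, 3 members were at least 1.5-fold higher than NC and 2 lower, where 33.7% of all genes passed in either direction. The RPL17 siRNA in HCT116 had 3 members higher and 1 lower (27.7% of all genes), and the RPL27 siRNA 1 higher and 2 lower (29.9% of all genes). In HT29 there were 4 higher and 22 lower under the RPL9 siRNA (57.5% of all genes), 3 higher and 28 lower under RPL17 (56.5%), and 3 higher and 29 lower under RPL27 (56.5%). PSMB10 was the 1 member that was at least 1.5-fold higher under all 3 RPL siRNAs in HCT116, where 6% of all genes were, and 0 members were lower under all 3, where 6.93% of all genes were. In HT29, PSMD5, PSME3 and PSME4 were higher under all 3 RPL siRNAs (3 of 47, against 26.6% of all genes), and 19 of 47 members were lower under all 3, against 13.5% of all genes. Asking for 2 RPL siRNAs in place of 3, by leaving out 1 of their libraries, gave 2 to 3 members in HCT116 in either direction, where 16.3% to 19.4% of all genes passed, and 23 to 30 in HT29, where 44.7% to 46.3% of all genes did. The 3 comparisons within a line share 1 NC library, so they are not independent of one another. In bulk RNA, fewer cells of a type and less RNA per cell cannot be told apart.

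Alpha ring subunits, which gate the core, had a median difference of -0.01 in HCT116 and -0.87 in HT29, where all 7 lay below NC under each RPL siRNA. Of all genes, 32.7% did so in HT29, and 46.6% lay above NC under each RPL siRNA there. In HCT116 the shares were 32.4% below and 33.0% above. These shares also stand beside such counts in the paragraphs that follow. PSMA2 had 2137, 2196 and 2217 RPKM under the RPL9, RPL17 and RPL27 siRNAs in HCT116, against 2205 RPKM under NC, and 2198, 1977 and 1878 RPKM in HT29 under the siRNAs in the same order, against 3973 RPKM under NC. PSMA7 had 1785, 1649.7 and 1533 RPKM under the RPL9, RPL17 and RPL27 siRNAs in HCT116, against 1618 RPKM under NC, and 2006, 1851 and 1786 RPKM in HT29 under the siRNAs in the same order, against 3915 RPKM under NC. In HCT116 the 3 RPL libraries averaged 99% of NC for PSMA2 and 102% for PSMA7, on both sides of it, whereas in HT29 they averaged 50.8% and 48% without overlap. PSMA3 had 3323, 3395 and 3218.5 RPKM under the RPL9, RPL17 and RPL27 siRNAs in HCT116, against 3429 RPKM under NC, and 2708, 2766 and 2599 RPKM in HT29 under the siRNAs in the same order, against 4901 RPKM under NC. PSMA5 had 2209.5, 2197 and 1913 RPKM under the RPL9, RPL17 and RPL27 siRNAs in HCT116, against 1900 RPKM under NC, and 1935, 1937.5 and 1733 RPKM in HT29 under the siRNAs in the same order, against 3468 RPKM under NC. In HT29 the RPL libraries of both lay below NC without overlap, and in HCT116 those of PSMA3 lay just below NC and those of PSMA5 just above it. PSMA6 had 1627, 1681.5 and 1516 RPKM under the RPL9, RPL17 and RPL27 siRNAs in HCT116, against 1574 RPKM under NC, and 1623, 1406 and 1412 RPKM in HT29 under the siRNAs in the same order, against 2307.5 RPKM under NC. PSMA4 had 3201, 3351 and 3098 RPKM under the RPL9, RPL17 and RPL27 siRNAs in HCT116, against 3832 RPKM under NC, and 3076, 3296 and 3384.5 RPKM in HT29 under the siRNAs in the same order, against 4949 RPKM under NC. PSMA4 is the alpha subunit whose RPL libraries stood lowest relative to NC in HCT116, at 83.9% of NC. Across the 7 subunits the mean RPL minus NC difference ran from -0.25 (PSMA4) to 0.15 (PSMA5) in HCT116 and from -1.06 (PSMA7) to -0.37 (PSMA1) in HT29.

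The structural beta subunits PSMB1 to PSMB4, which hold the inner rings together, included the constitutive core subunit furthest below NC in HT29. PSMB3, whose promoter window is printed above, had 1579, 1606 and 1439 RPKM under the RPL9, RPL17 and RPL27 siRNAs in HCT116, against 1733 RPKM under NC, and 1532.5, 1539.6 and 1409 RPKM in HT29 under the siRNAs in the same order, against 3877 RPKM under NC. Its RPL libraries averaged 88.9% of NC in HCT116 and 38.5% in HT29, and in neither line did they overlap NC. PSMB1 had 2206, 2084 and 2310.5 RPKM under the RPL9, RPL17 and RPL27 siRNAs in HCT116, against 2503 RPKM under NC, and 1791, 1733 and 1751 RPKM in HT29 under the siRNAs in the same order, against 3857 RPKM under NC. PSMB4 had 1937, 1917 and 2091 RPKM under the RPL9, RPL17 and RPL27 siRNAs in HCT116, against 1832 RPKM under NC, and 1718.5, 1493 and 1712 RPKM in HT29 under the siRNAs in the same order, against 3118 RPKM under NC. PSMB2 had 1563, 1578 and 1653.5 RPKM under the RPL9, RPL17 and RPL27 siRNAs in HCT116, against 1838 RPKM under NC, and 1507, 1536 and 1459 RPKM in HT29 under the siRNAs in the same order, against 2176 RPKM under NC. PSMB1, PSMB2 and PSMB3 were under NC in every RPL library of both lines, and PSMB4 was over NC in HCT116 and under it in HT29. Of all genes, 32.4% were under NC in every RPL library of HCT116 and 32.7% in every one of HT29.

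The constitutive protease subunits were close to NC in HCT116 and lower in HT29. PSMB5, the chymotrypsin-like site and the main target of clinical proteasome inhibitors, had 356, 359 and 368.5 RPKM under the RPL9, RPL17 and RPL27 siRNAs in HCT116, against 366 RPKM under NC, and 250.1, 275 and 274 RPKM in HT29 under the siRNAs in the same order, against 487 RPKM under NC. PSMB6, the caspase-like site, had 1456, 1405 and 1313 RPKM under the RPL9, RPL17 and RPL27 siRNAs in HCT116, against 1304 RPKM under NC, and 1147, 932 and 975 RPKM in HT29 under the siRNAs in the same order, against 2173 RPKM under NC. PSMB7, the trypsin-like site, had 2931, 2368 and 2434 RPKM under the RPL9, RPL17 and RPL27 siRNAs in HCT116, against 2402 RPKM under NC, and 2214, 1918 and 1817 RPKM in HT29 under the siRNAs in the same order, against 3293 RPKM under NC. In HT29 all RPL libraries lay below NC for the 3 proteases, as they did for 32.7% of all genes. Their means were 54.7%, 46.8% and 60.2% of NC for PSMB5, PSMB6 and PSMB7. In HCT116 the RPL libraries of PSMB5 and PSMB7 lay on both sides of NC, and those of PSMB6 were above it by at most 0.16 log2.

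The inducible proteases that replace them differed in direction. PSMB10, the inducible counterpart of PSMB7, had 172, 183 and 189 RPKM under the RPL9, RPL17 and RPL27 siRNAs in HCT116, against 91.9 RPKM under NC, and 188, 141 and 129 RPKM in HT29 under the siRNAs in the same order, against 268.5 RPKM under NC. It averaged 197% of NC in HCT116 and 56.9% in HT29, on opposite sides of NC with no overlap in either line. The RPL libraries of the lines were nearer to each other than the NC libraries were, whose values, 91.9 RPKM for HCT116 and 268.5 RPKM for HT29, lay furthest apart. PSMB9, the counterpart of PSMB6, had 13.3, 48.2 and 31.4 RPKM under the RPL9, RPL17 and RPL27 siRNAs in HCT116, against 39.9 RPKM under NC, and 24.5, 22 and 24.2 RPKM in HT29 under the siRNAs in the same order, against 65.8 RPKM under NC. In HT29 its RPL libraries lay below NC, and in HCT116 they spread on both sides, with the RPL9 library lowest. PSMB8, the counterpart of PSMB5, had 0.849, 0 and 0 RPKM under the RPL9, RPL17 and RPL27 siRNAs in HCT116, against 1.69 RPKM under NC, and 21.3, 17.8 and 8.36 RPKM in HT29 under the siRNAs in the same order, against 12.4 RPKM under NC. In HCT116 it was listed at 0 under RPL17 and RPL27, and in HT29 the RPL27 library was below NC and the others above. Annotated exons of PSMB8 and PSMB9 overlap each other and PSMB8-AS1, so their reads may be shared.

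**Figure D2:**
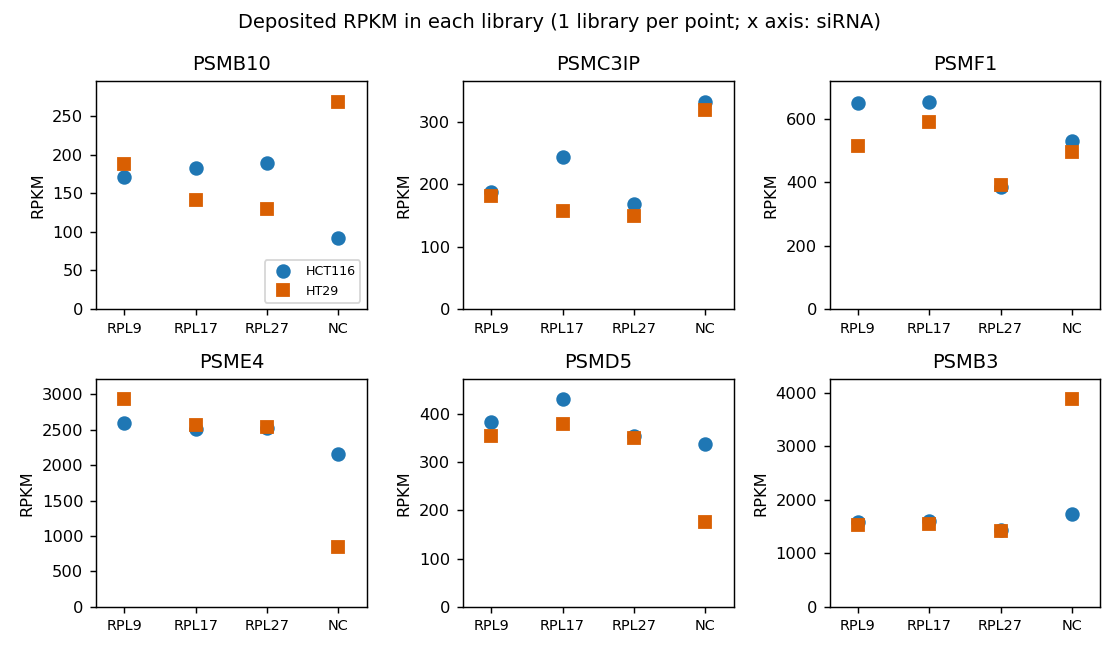
Deposited RPKM (y axis from 0) of 6 genes in each library, by siRNA on the x axis, with HCT116 as circles and HT29 as squares; each point is 1 library. For PSMB10, PSME4, PSMD5 and PSMB3 the NC libraries of the lines lie apart while the RPL libraries lie closer together, and for PSMF1 the RPL27 library is the lowest in both lines.

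The ATPases of the 19S base unfold substrates and open the gate. PSMC4 had 1806, 1435.5 and 1595 RPKM under the RPL9, RPL17 and RPL27 siRNAs in HCT116, against 1309.8 RPKM under NC, and 1485, 1176 and 1216 RPKM in HT29 under the siRNAs in the same order, against 1713 RPKM under NC. PSMC5 had 2760.4, 2870.2 and 2688.5 RPKM under the RPL9, RPL17 and RPL27 siRNAs in HCT116, against 2324 RPKM under NC, and 2415.5, 2334 and 2354 RPKM in HT29 under the siRNAs in the same order, against 3277 RPKM under NC. These were the ATPases above NC in all 3 RPL libraries of HCT116, as were 33.0% of all genes. Both were below NC in all 3 of HT29, as were 32.7% of all genes. PSMC1 had 2329.8, 2157.5 and 2217 RPKM under the RPL9, RPL17 and RPL27 siRNAs in HCT116, against 2269 RPKM under NC, and 1667, 1493 and 1609.5 RPKM in HT29 under the siRNAs in the same order, against 2486.5 RPKM under NC. PSMC3 had 1990.4, 2198 and 2029.9 RPKM under the RPL9, RPL17 and RPL27 siRNAs in HCT116, against 1994 RPKM under NC, and 1694, 1794 and 1637 RPKM in HT29 under the siRNAs in the same order, against 2578 RPKM under NC. PSMC1 and PSMC3 lay on both sides of NC in HCT116 and below it, without overlap, in HT29. PSMC2 and PSMC6 lay near NC in HT29, at 99.2% and 91.2% of it on average. Over the 6 ATPases the differences ran from -0.04 to 0.29 in HCT116 and from -0.65 to -0.02 in HT29.

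Among the non-ATPase subunits of the base, PSMD2 and PSMD1 are scaffolds that dock ubiquitin-like domains, and PSMD4 is a ubiquitin receptor. PSMD2 had 4309, 4069.9 and 3756 RPKM under the RPL9, RPL17 and RPL27 siRNAs in HCT116, against 4419.6 RPKM under NC, and 3039, 2868 and 2703.5 RPKM in HT29 under the siRNAs in the same order, against 4329 RPKM under NC. PSMD4 had 1893, 1875 and 1737 RPKM under the RPL9, RPL17 and RPL27 siRNAs in HCT116, against 2016 RPKM under NC, and 1624, 1592 and 1469.9 RPKM in HT29 under the siRNAs in the same order, against 2937 RPKM under NC. PSMD1 had 2823, 3039.5 and 3092 RPKM under the RPL9, RPL17 and RPL27 siRNAs in HCT116, against 3567 RPKM under NC, and 2390.3, 2732 and 2524 RPKM in HT29 under the siRNAs in the same order, against 2730 RPKM under NC. All 3 were below NC in every RPL library of HCT116, as were 32.4% of all genes. PSMD2 and PSMD4 were also below NC in every RPL library of HT29, where PSMD1 reached the NC level under the RPL17 siRNA.

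In the lid, which carries the deubiquitinase, the scaffolds PSMD11 and PSMD12 were above NC in HT29 in the deposited values: PSMD11 had 2132, 2285 and 2070.2 RPKM under the RPL9, RPL17 and RPL27 siRNAs in HCT116, against 2122 RPKM under NC, and 2252, 2091 and 1968 RPKM in HT29 under the siRNAs in the same order, against 1587 RPKM under NC. PSMD12, whose promoter window is printed above, had 2236, 2423 and 1989.6 RPKM under the RPL9, RPL17 and RPL27 siRNAs in HCT116, against 2048 RPKM under NC, and 2185.5, 2019 and 1955 RPKM in HT29 under the siRNAs in the same order, against 1625 RPKM under NC. Both lay on either side of NC in HCT116. They were the 2 lid subunits, of 8, above NC in all 3 RPL libraries of HT29, as were 46.6% of all genes. This depended on transcript length: with the length trend of each library removed (described further on), the mean HT29 difference was -0.26 for PSMD12 in place of 0.34, and 0.12 for PSMD11 in place of 0.40. PSMD14, the deubiquitinase itself, had 2257, 2153 and 2362 RPKM under the RPL9, RPL17 and RPL27 siRNAs in HCT116, against 2683 RPKM under NC, and 2192, 1481 and 1766 RPKM in HT29 under the siRNAs in the same order, against 2733 RPKM under NC. PSMD3, another scaffold, had 1555, 1372 and 1280.5 RPKM under the RPL9, RPL17 and RPL27 siRNAs in HCT116, against 1678 RPKM under NC, and 1185, 1126 and 1267 RPKM in HT29 under the siRNAs in the same order, against 2143.5 RPKM under NC. PSMD6, which bridges lid and base, had 878, 888 and 851 RPKM under the RPL9, RPL17 and RPL27 siRNAs in HCT116, against 775.5 RPKM under NC, and 557.5, 594 and 573 RPKM in HT29 under the siRNAs in the same order, against 917 RPKM under NC. PSMD3 and PSMD14 were below NC in all 6 comparisons within a line, while PSMD6 was above NC in HCT116 and below it in HT29. The other lid subunits, PSMD7, PSMD8 and PSMD13, averaged 97.3% to 108% of NC in HCT116 and 66.8% to 80.4% in HT29.

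Chaperones of the 19S base stood far apart from each other. PSMD5, which holds ATPases during assembly, had 383, 429 and 353 RPKM under the RPL9, RPL17 and RPL27 siRNAs in HCT116, against 337.5 RPKM under NC, and 354, 379 and 349.5 RPKM in HT29 under the siRNAs in the same order, against 176 RPKM under NC. It was above NC in all 3 RPL libraries of both lines, at 115% of NC on average in HCT116 and 205% in HT29. Being above NC in all 3 held for 33.0% of all genes in HCT116 and 46.6% in HT29. PSMD9, another base chaperone, had 181, 190.5 and 154 RPKM under the RPL9, RPL17 and RPL27 siRNAs in HCT116, against 208 RPKM under NC, and 164, 128 and 143 RPKM in HT29 under the siRNAs in the same order, against 318.5 RPKM under NC. It was below NC in all RPL libraries of both lines. Being below NC in all 3 held for 32.4% of all genes in HCT116 and 32.7% in HT29. PSMD10, also known as gankyrin, had 196, 198.5 and 216 RPKM under the RPL9, RPL17 and RPL27 siRNAs in HCT116, against 211 RPKM under NC, and 189, 125 and 171 RPKM in HT29 under the siRNAs in the same order, against 165 RPKM under NC. Its RPL libraries lay on both sides of NC in both lines.

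Chaperones of the 20S core work in pairs, PSMG1 with PSMG2 and PSMG3 with PSMG4. All 4 were above NC in every RPL library of HCT116 and below NC in every RPL library of HT29. Of all genes, 33.0% lay above NC in this way in HCT116 and 32.7% below it in HT29. With the length trend removed, PSMG4 in HT29 was above NC under RPL9 (0.15), and PSMG3 was at -0.005 under RPL17. PSMG3 had 98.7, 89.6 and 79.7 RPKM under the RPL9, RPL17 and RPL27 siRNAs in HCT116, against 56.5 RPKM under NC, and 64.5, 72.9 and 63.5 RPKM in HT29 under the siRNAs in the same order, against 115 RPKM under NC. PSMG4 had 53.6, 56.9 and 37.2 RPKM under the RPL9, RPL17 and RPL27 siRNAs in HCT116, against 29.4 RPKM under NC, and 78.4, 53.9 and 53.9 RPKM in HT29 under the siRNAs in the same order, against 112 RPKM under NC. PSMG2 had 355, 394 and 407 RPKM under the RPL9, RPL17 and RPL27 siRNAs in HCT116, against 348 RPKM under NC, and 423, 416 and 385 RPKM in HT29 under the siRNAs in the same order, against 707 RPKM under NC. In HCT116 the RPL libraries averaged 158% of NC for PSMG3 and 168% for PSMG4.

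Activators other than 19S differed by type. PSME4, a large nuclear activator of the core, had 2594, 2506 and 2525 RPKM under the RPL9, RPL17 and RPL27 siRNAs in HCT116, against 2160 RPKM under NC, and 2929.6, 2567 and 2544 RPKM in HT29 under the siRNAs in the same order, against 851 RPKM under NC. Its RPL libraries were above NC in both lines, at 118% of NC in HCT116 and 315% in HT29. PSME3, the nuclear cap that degrades some proteins without ubiquitin, had 2174, 2729 and 2102 RPKM under the RPL9, RPL17 and RPL27 siRNAs in HCT116, against 1954 RPKM under NC, and 2348, 2416 and 1999 RPKM in HT29 under the siRNAs in the same order, against 1277 RPKM under NC. It too was above NC in all RPL libraries of both lines. That held for 33.0% of all genes in HCT116 and for 46.6% in HT29, each line taken alone. PSME1 and PSME2 form the interferon-inducible cap. PSME1 had 1423, 1955 and 1990 RPKM under the RPL9, RPL17 and RPL27 siRNAs in HCT116, against 1693 RPKM under NC, and 2128, 2299 and 2164 RPKM in HT29 under the siRNAs in the same order, against 4025 RPKM under NC. PSME2 had 2771, 3051 and 2445 RPKM under the RPL9, RPL17 and RPL27 siRNAs in HCT116, against 2593 RPKM under NC, and 2919, 3261 and 3054.5 RPKM in HT29 under the siRNAs in the same order, against 6046 RPKM under NC. Both were below NC in HT29 without overlap, as were 32.7% of all genes, and spread to both sides of NC in HCT116. PSMF1, an inhibitor of the core in vitro, had 649, 654 and 384.5 RPKM under the RPL9, RPL17 and RPL27 siRNAs in HCT116, against 529.8 RPKM under NC, and 514, 589 and 392 RPKM in HT29 under the siRNAs in the same order, against 494.5 RPKM under NC. Its RPL27 library was the lowest of the 4 in each line.

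PSMC3IP, which matched the symbol pattern, encodes a partner of the recombinases in homologous recombination and is not a part of the proteasome. It had 187, 244 and 168 RPKM under the RPL9, RPL17 and RPL27 siRNAs in HCT116, against 332 RPKM under NC, and 181, 156.5 and 149 RPKM in HT29 under the siRNAs in the same order, against 319 RPKM under NC. Every RPL library lay below NC, at 60.1% of NC on average in HCT116 and 50.8% in HT29. Being below NC under all 3 held for 32.4% of all genes in HCT116 and 32.7% in HT29.

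Transcript length moved with the differences from NC in HT29. Over the 47 members, Spearman's rho between length and the mean difference from NC was -0.08 in HCT116 and 0.56 in HT29. This is a description over genes that share their libraries. The 11 members under 1000 bases had a median of -0.93 in HT29, the 21 members from 1000 to under 2000 bases -0.61, and the 15 members of 2000 bases or more -0.54. PSME4 is the longest member (7099 bases) and the highest of the members in HT29. With the trend of each library with length removed, the HCT116 medians averaged 0.01 over the 3 RPL siRNAs in place of 0.02, and the HT29 medians -0.34 in place of -0.63.

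**Figure D3:**
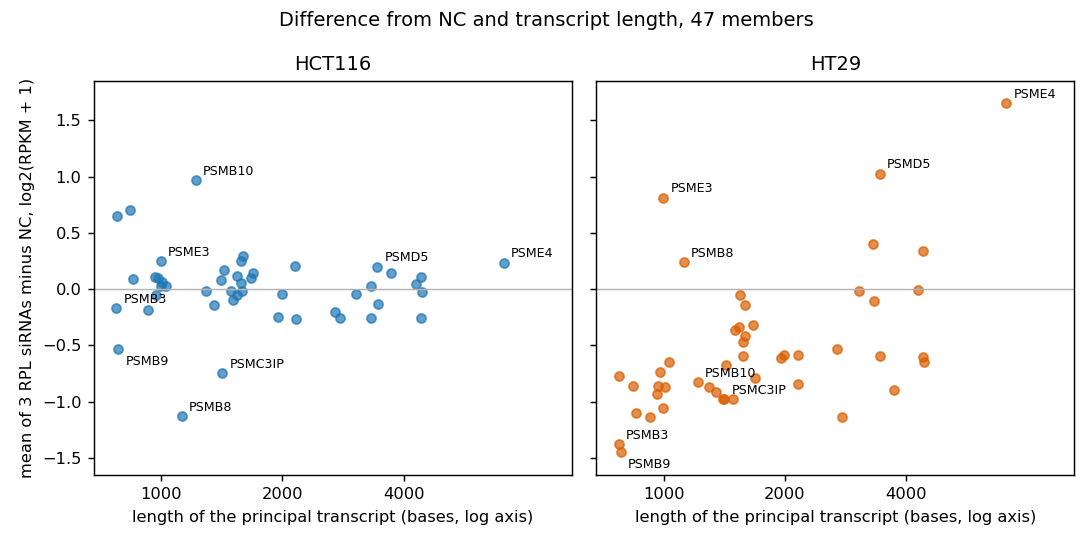
Each point is a member, with the length of its principal transcript in bases on a log axis and its mean RPL siRNA minus NC difference in log2(RPKM + 1) on the y axis. HCT116 shows no slope (rho of -0.08), while in HT29 the members under 1000 bases have the lowest median and the longest, PSME4 at 7099 bases, is furthest above NC.

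After this correction 9 members were at least 1.5-fold lower under all 3 RPL siRNAs in HT29 (14.2% of all genes) and 2 were higher, PSMD5 and PSME3 (14.7% of all genes). In HCT116, PSMB10 was higher (6.23% of all genes) and PSMB8 lower (6.43%). PSMB8 is near the floor there, at 1.69 RPKM under NC and 0.849, 0 and 0 RPKM under the RPL siRNAs. Its pass depends on the pseudocount and on a small shift under RPL9, from -0.54 to -0.61. The result depends on how length is defined. Length was taken from the annotated principal transcript of each gene. With the transcript tied to the deposited accession, 7 members were lower in HT29 (14.6% of all genes) and 1 higher (15.4%). With the longest coding transcript, 9 were lower (14% of all genes) and 1 higher (14.5%). The mean HT29 difference changed sign for 5 members after correction by the principal transcript, PSMA1, PSMC6, PSMD8, PSMD10 and PSMD12, and for 5 and 9 members with the other lengths. PSMB2, PSMB3, PSMB9, PSMC1 and PSMD2 were lower, and PSMD5 higher, under all 3 definitions, and 11 members were lower under at least 1. PSMB3 (773 bases), PSMC1 (4448 bases) and PSMD2 (3449 bases) have the same length under each definition, and PSMB9 nearly so. For these genes the agreement says little about the definition.

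**Figure D4:**
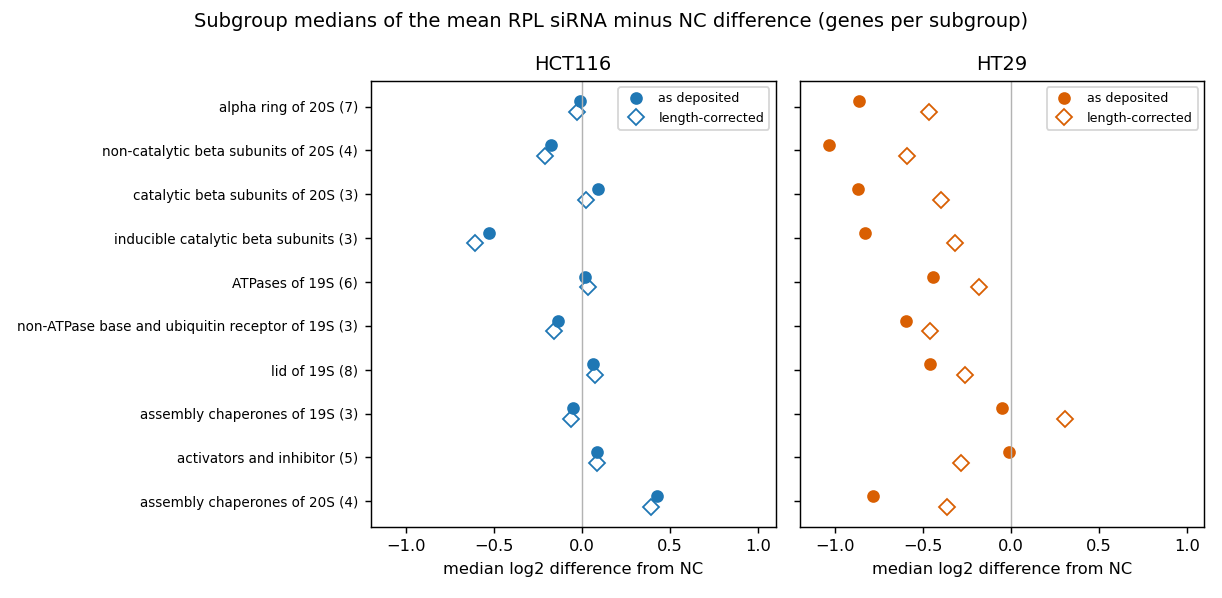
Median over each subgroup (number of genes in brackets) of the mean RPL siRNA minus NC difference in log2(RPKM + 1), as deposited (filled) and after removal of the length trend (open). In HT29 the alpha ring median is -0.87 as deposited and -0.47 after correction, and the core chaperones are the subgroup furthest above NC in HCT116, at 0.42.

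Across both lines, no proteasome transcript passed the test against NC. limma with the line as a term called 0 of 47 members for the mean of the 3 RPL siRNAs at a Benjamini-Hochberg adjusted p under 0.05, where 0.168% of all genes were called, and 12 members had an unadjusted p under 0.05, as did 24.6% of all genes. For the single siRNAs limma called 0 members under RPL9 (0.007% of all genes), 0 under RPL17 (0.014%) and 0 under RPL27 (0% of all genes). At an unadjusted p under 0.05 there were 4 members under RPL9 (20.4% of all genes), 6 under RPL17 (15.7%) and 7 under RPL27 (16.7%). PSMC3IP came nearest, with a mean log2 difference of -0.86 (95% interval -1.34 to -0.39) and an adjusted p of 0.0964 by limma. It was lower than NC in 6 of 6 libraries. The largest other differences were negative for PSMB9 (-0.99, adjusted p = 0.223), PSMB3 (-0.77, adjusted p = 0.171), PSMD9 (-0.69, adjusted p = 0.178), PSMB1 (-0.66, adjusted p = 0.166) and PSMD3 (-0.56, adjusted p = 0.158). They were positive for PSME4 (0.94, adjusted p = 0.159), PSMD5 (0.61, adjusted p = 0.178), PSME3 (0.53, adjusted p = 0.155), PSMD12 (0.22, adjusted p = 0.337), PSMD11 (0.22, adjusted p = 0.384) and PSMB10 (0.07, adjusted p = 0.925). The 95% interval lay within 1.5-fold of NC for 12 of 47 members, so the data leave room for larger differences in the others.

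These results rest on the NC libraries. With the NC library of HT29 left out, the contrast for the mean is the HCT116 difference from its single NC library. For PSMB10 that log2 difference was 0.97. With the NC library of HCT116 left out, the contrast is likewise the HT29 difference from its single NC library. Such fits hold no spread among NC libraries, so no p-value is given for them and their counts of calls are not read as results. The members' median log2 difference was -0.32 with both NC libraries, 0.03 without that of HT29 and -0.64 without that of HCT116.

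The RPL siRNA effect in HCT116 minus that in HT29 was also fitted with limma. Each line has 1 NC library, so the p-values of this difference measure the spread among the RPL libraries and none among NC libraries, and the HT29 NC library stands apart. The difference was called for 23 of 47 members, 21 with a higher effect in HCT116 and 2 with a lower one, where 22.9% of all genes were called. The core and its chaperones gave PSMB10 (1.798), PSMG3 (1.42), PSMB3 (1.21), PSMB6 (1.19), PSMA7 (1.09), PSMB4 (1.04), PSMA5 (1.04), PSMA2 (0.97), PSMB1 (0.95), PSMG2 (0.94), PSMB5 (0.85), PSMB7 (0.83), PSMA3 (0.81) and PSMA6 (0.67), all as log2 differences of effect. The 19S particle gave PSMD6 (0.84), PSMD4 (0.78), PSMC5 (0.72), PSMC3 (0.65) and PSMC1 (0.62), and the interferon-inducible cap PSME2 (1.06) and PSME1 (0.94). The 2 lower effects were those of PSME4 (-1.42, adjusted p = 0.00123) and PSMD5 (-0.83, adjusted p = 0.0354). PSMB10 had an adjusted p of 0.00753 (95% interval 1.03 to 2.56). The call of PSMD5 held under 6 of 15 alternatives, and leaving out HCT116 RPL9, HCT116 RPL27 or any 1 of the 3 HT29 RPL libraries put its adjusted p at 0.0511 to 0.0728.

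Of these 23 members, 2 were also called after the length correction, PSMA5 and PSMC1. Under it limma called 5 members (6.64% of all genes): PSMA5 (1.47), PSMC1 (1.27), PSMA4 (0.99), PSMD2 (0.81) and PSME3 (-1.21). With the accession's transcript length it called 4 (7.84% of all genes), PSMB10 (1.35), PSMC1 (1.33), PSMD2 (0.86) and PSMD5 (-1.12). With the longest transcript it called 5 (5.97% of all genes), PSMG4 (2.18), PSMA5 (1.39), PSMC1 (1.19), PSMA4 (0.91) and PSMB2 (0.83). PSMC1 was the 1 member called under all 3 definitions of length. Its length was 4448 bases under each, so this agreement says little about the definition. The correction itself moved its mean HT29 difference from -0.65 to -1.26. PSME3 was called with its principal transcript of 998 bases and not with that of its accession (2944 bases) or its longest (3366 bases). The principal transcripts of PSMA4 (4411 bases) and PSMA5 (3729 bases) are also their longest. With the lengths of their accessions, 773 and 1504 bases, neither gene was called. The correction by the principal transcript moved the mean HT29 difference of PSMA4 from -0.61 to -1.21 and that of PSMA5 from -0.89 to -1.29. PSMC1 has 13 annotated pseudogenes and exons overlapping NRDE2 on the other strand, whose part in its values was not tested. PSME4, called as deposited, was at -0.23 with an adjusted p of 0.515 after the correction.

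The RPL siRNAs were also set against each other, with the 6 RPL libraries alone and no NC library. The spread of a member within a line (SD of log2 over the 3 RPL siRNAs, pooled over lines) had a median of 0.099, against 0.236 over all genes tested, and 39 of 47 members were under 0.2, as were 41.0% of all genes. Members and all genes are not matched for level here, and the part of level in this spread was not tested. The inhibitor PSMF1 had the smallest adjusted p in both comparisons with RPL27, and in both lines its RPL27 library was below its RPL9 and RPL17 libraries. limma called 0 of 47 members between RPL9 and RPL17 (0.329% of all genes), 0 between RPL9 and RPL27 (1.38%) and 0 between RPL17 and RPL27 (0.938%). At an unadjusted p under 0.05 there were 5, 9 and 6 members in these comparisons, and 19.6%, 20% and 17.4% of all genes.

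For PSMF1 the log2 difference was 0.68 for RPL17 against RPL27 (95% interval 0.40 to 0.95, limma adjusted p = 0.061) and 0.57 for RPL9 against RPL27 (95% interval 0.30 to 0.84, adjusted p = 0.074). These share the RPL27 libraries. With 1 of the RPL9 libraries left out, from HCT116 or from HT29, the adjusted p for RPL17 against RPL27 was 0.0469 or 0.0404. For PSMF1 it was under 0.05 in only 4 of 17 alternatives for RPL17 against RPL27, and in 1 of 17 for RPL9 against RPL27. Between RPL9 and RPL17 the largest positive differences were PSMB8 (0.57), PSMC4 (0.33, adjusted p = 0.0911) and PSMD14 (0.32), and the largest negative PSMB9 (-0.82), PSME1 (-0.28) and PSME3 (-0.18). Between RPL9 and RPL27, beside PSMF1, they were PSMB8 (1.07) and PSMG4 (0.52), and on the negative side PSMB9 (-0.58), PSME1 (-0.25) and PSMD1 (-0.10). PSMB7 had 0.28 with an adjusted p of 0.092. Between RPL17 and RPL27 they were PSMB8 (0.50) and PSME3 (0.33), and on the negative side PSMD10 (-0.28), PSMD14 (-0.19) and PSMB4 (-0.16). PSMB8 had 0.849, 0 and 0 RPKM in HCT116 under the RPL9, RPL17 and RPL27 siRNAs, so its pair differences depend on the pseudocount. The 95% interval of the difference lay within 1.5-fold for 41, 40 and 40 of 47 members in the RPL9 against RPL17, RPL9 against RPL27 and RPL17 against RPL27 comparisons.

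Under the RPL siRNAs HCT116 and HT29 differed modestly in the core and the 19S base. limma called 17 of 47 members, 15 higher and 2 lower in HCT116, where 22.9% of all genes were called. The inducible protease PSMB8 had 0.849, 0 and 0 RPKM in HCT116 against 21.3, 17.8 and 8.36 RPKM in HT29 under the RPL9, RPL17 and RPL27 siRNAs. PSMB8 reached the mean of 1 RPKM that defines the members only through HT29, so its difference is given as a description, although it is among the 17. That log2 difference of -3.69 depends on the pseudocount, since 2 HCT116 libraries are listed at 0. PSMA7 was lower in HCT116, by a log2 difference of -0.18 (adjusted p = 0.0425).

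The 3 constitutive proteases were all higher in HCT116, with log2 differences of 0.45 for PSMB6, 0.44 for PSMB5 and 0.38 for PSMB7. The largest differences were those of PSMD6 (0.60, adjusted p = 0.00258), PSMD2 (0.49, adjusted p = 0.0012) and PSMC1 (0.49, adjusted p = 0.00213). The other members called were PSMB1 (0.32), PSMC4 (0.32), PSMA3 (0.30), PSMC3 (0.28), PSMB4 (0.27), PSMD4 (0.23), PSMD1 (0.23), PSMC5 (0.23) and PSMA5 (0.17). After PSMB8, the lowest values were PSMG4 (-0.33, adjusted p = 0.251) and PSME1 (-0.31, adjusted p = 0.0608), which did not pass. The interval lay within 1.5-fold for 34 of 47 members. Without any 1 of the RPL17 or RPL27 libraries, limma called 5 (HCT116 RPL17 left out, 8.33% of all genes) or 7 members (HCT116 RPL27, HT29 RPL17 or HT29 RPL27 left out, 11.6%, 8.76% and 12% of all genes).

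**Figure D5:**
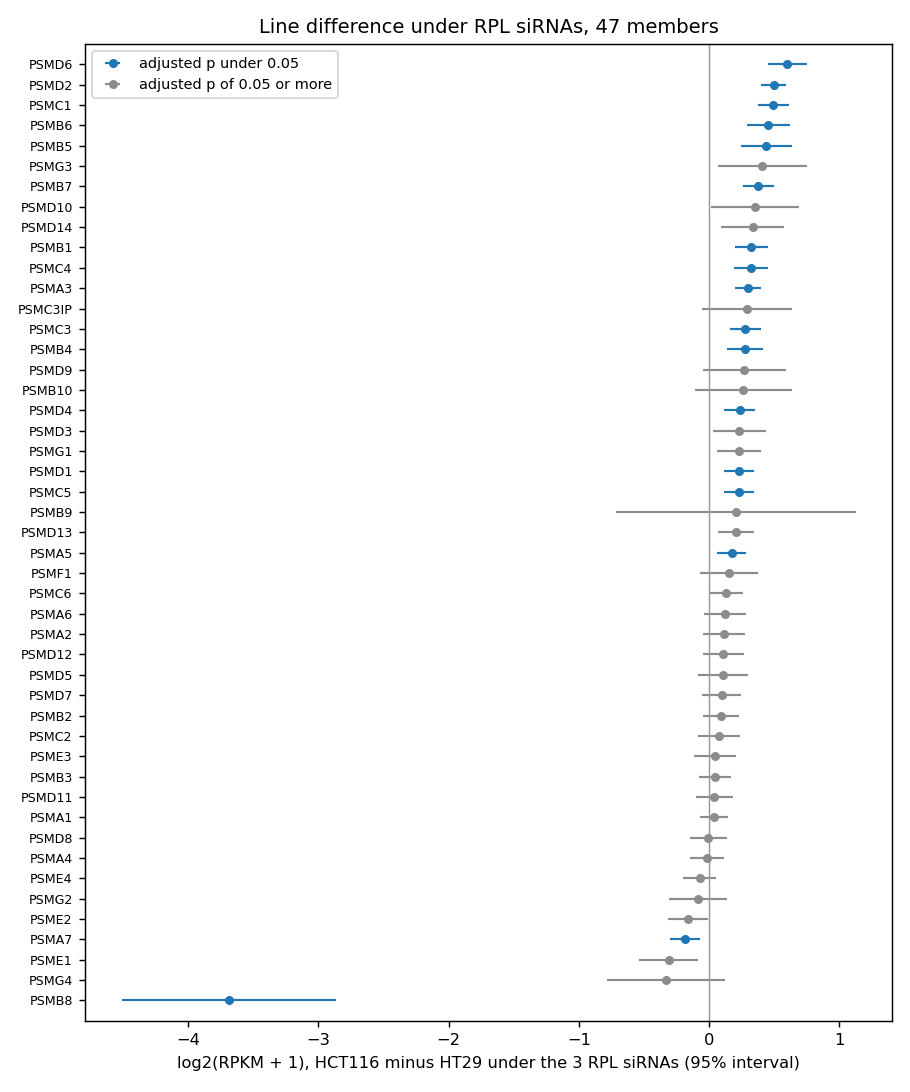
HCT116 minus HT29 in log2(RPKM + 1) under the 3 RPL siRNAs for each member (point) with its 95% interval, ordered by the difference; blue marks an adjusted p under 0.05. PSMB8, a member only through its HT29 values, is at -3.69, and the other 16 called members lie between -0.18 and 0.60.

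Genes around the proteasome were read from lists of partners. Against NC, limma called 0 of the 71 genes in the 8 lists for the mean of the RPL siRNAs, and 21 had an unadjusted p under 0.05 (24.6% of all genes). TAP1, the peptide transporter of class I presentation, had 389, 401 and 403 RPKM under the RPL9, RPL17 and RPL27 siRNAs in HCT116, against 195 RPKM under NC, and 301, 283 and 300.3 RPKM in HT29 under the siRNAs in the same order, against 189 RPKM under NC. It was above NC in all 6 RPL libraries, with a mean log2 difference of 0.83 and an adjusted p of 0.0878. NFE2L1, the regulator of proteasome genes, had 301, 309 and 315 RPKM under the RPL9, RPL17 and RPL27 siRNAs in HCT116, against 424 RPKM under NC, and 251, 307 and 307 RPKM in HT29 under the siRNAs in the same order, against 202 RPKM under NC. It was below NC in HCT116 and above it in HT29, with a difference of effect of -0.97 (limma adjusted p = 0.0249). After the length correction its log2 difference from NC averaged -0.41 in HCT116 and -0.19 in HT29, below NC in both, and its difference of effect was -0.22 (adjusted p = 0.605). POMP, the maturation factor of the core, had 2123, 2493 and 2309 RPKM under the RPL9, RPL17 and RPL27 siRNAs in HCT116, against 2279 RPKM under NC, and 2970.2, 2656 and 2663 RPKM in HT29 under the siRNAs in the same order, against 4384.5 RPKM under NC. Its difference of effect was 0.68 (adjusted p = 0.0274), and after the length correction 0.20 (adjusted p = 0.587).

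USP14, a deubiquitinase bound to the 19S base, had 1029.6, 1107 and 916 RPKM under the RPL9, RPL17 and RPL27 siRNAs in HCT116, against 1123 RPKM under NC, and 1424.5, 1211 and 1167 RPKM in HT29 under the siRNAs in the same order, against 826.5 RPKM under NC. Its difference of effect was -0.76 (adjusted p = 0.0464). After the length correction its log2 difference from NC averaged -0.10 in HCT116 and -0.13 in HT29, with a difference of effect of 0.03 (adjusted p = 0.959). Under the RPL siRNAs it was lower in HCT116 by a log2 difference of -0.32 as deposited. ADRM1, a ubiquitin receptor of the particle, had 1481.5, 1069 and 1206 RPKM under the RPL9, RPL17 and RPL27 siRNAs in HCT116, against 1036 RPKM under NC, and 1373, 1077 and 1255 RPKM in HT29 under the siRNAs in the same order, against 1706 RPKM under NC. Its difference of effect was 0.73 (adjusted p = 0.106).

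The difference of effect between the lines was called for 5 of 10 genes bound to the proteasome (22.9% of all genes), which were SHFM1 (1.16), POMP, KIAA0368 (-0.65), USP14 and UBE3C (-1.31). In the list of the NFE2L1 axis it was called for 7 of 13 genes, and these 7 were negative: NFE2L1, SYVN1 (-1.08), OGT (-1.24), NFE2L3 (-1.26), HCFC1 (-1.35), SEL1L (-2.48) and DDI2 (-3.42). With the length trend removed 0 of those 5 and 2 of those 7, SYVN1 and DDI2, were called, against 6.64% of all genes. DDI2, the protease that activates NFE2L1, had 159.8, 148 and 156.5 RPKM under the RPL9, RPL17 and RPL27 siRNAs in HCT116, against 152 RPKM under NC, and 209, 220.1 and 179 RPKM in HT29 under the siRNAs in the same order, against 17.6 RPKM under NC, with HT29 NC the 1 library far below the rest. Genes called among the ubiquitin and E1 genes included RPS27A (1.29), UBB (1.06) and UBA6 (-1.97), and those called among the class I genes included HLA-B (1.33) and HLA-C (1.12). The 9 VCP cofactors gave UBXN1 (0.75), NPLOC4 (-0.83), UBXN4 (-0.998), FAF2 (-1.46) and UBXN7 (-3.88). The 7 ubiquitin shuttles gave NBR1 (-0.95) and UBQLN1 (-1.003), the interferon factors included STAT2 (-1.02), and the 10 NFE2L2 targets gave TXNRD1 (-1.55). These values carry the HT29 NC library as those of the members do, and of the 71 genes in the lists 30 were called as deposited and 7 after the length correction.

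Under the RPL siRNAs, free of NC, limma called the line difference for 24 of the 71 partner genes, against 22.9% of all genes. Those called in the class I list included HLA-B (0.64), TAP1 (0.43), HLA-C (0.40), B2M (-0.46), ERAP1 (-1.03) and ERAP2 (-3.22), and those among the interferon factors included IRF1 (-0.68). Shuttles and VCP cofactors called included RAD23B (0.16), NPLOC4 (0.26) and NSFL1C (0.36), and these were higher in HCT116. In the NFE2L1 axis OGT (-0.24) and SYVN1 (-0.32) were called. NFE2L2 targets called included SRXN1 (0.66), HMOX1 (0.58), GCLC (-0.34), NQO1 (-0.52) and TALDO1 (-0.54). Between RPL siRNAs the calls among the 71 partners were 1 for RPL9 against RPL17 (0.329% of all genes), HMOX1 (1.60). For RPL9 against RPL27 they were 3 (1.38% of all genes), NQO1 (-1.12), PGD (-0.59) and TKT (-0.36). RPL17 against RPL27 gave 1 (0.938% of all genes), TKT (-0.54).

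Some members share sequence with other genes. Of the 47, 12 have annotated pseudogenes, 32 in all, and the exons of 24 overlap another annotated gene. Values of those members are uncertain where reads were split or shared. Reads from overlapping genes on the other strand cannot be told apart where counting does not use strand, which the sources used here do not give.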

How the data were processed

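RNA libraries (Illumina TruSeq RNA kit, per the labels' protocols) were deposited as 8 gene tables, 1 per library, with RPKM values made by the authors. The submitters' processing notes name CASAVA 1.8.2, TopHat2 2.0.9 and hg19. The counting rule is not stated in the labels or headers. The deposited RPKM values, multiplied by transcript length and summed, reached 18.3 to 23.2 M a library, far above what RPKM of whole transcripts can sum to, so levels were not compared between genes. No count test was run, since whole reads were not recovered.

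Of 19124 genes, the 14281 whose mean reached 1 RPKM were tested on log2(RPKM + 1) with limma 3.58.1 (R 4.3.3, trend) and Benjamini-Hochberg adjustment at 0.05. Contrasts with NC used 8 libraries with line and siRNA terms (3 residual degrees of freedom). Comparisons between RPL siRNAs, and between lines, used the 6 RPL libraries (2 residual degrees of freedom). Differences within a line had 1 library a side, hence no test and a 1.5-fold size rule. All groups have 1 sample, so p-values measure the spread between lines or between RPL siRNAs. The test of the difference of effect between lines used all 8 libraries, with the RPL siRNAs of a line as its replicates. Scripts were tested on simulated data, with Python 3.11.15, numpy 2.4.6, pandas 2.3.3, scipy 1.17.1 and matplotlib 3.10.9. Alternatives were other pseudocounts, filters on low values, quantile normalization, median-centring, length correction, fits without the line or siRNA term, and each library left out.

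Length was taken from GENCODE v29 transcripts. The correction removed a spline (5 degrees of freedom) on log2 length from each library's deviation, over 14181 genes. The first definition run was the transcript tied to the accession in the deposited tables. After its results had been seen it was replaced by the APPRIS principal transcript, because it gave implausibly short transcripts for some members (as low as 516 bases). In all, 6 definitions were compared against the HT29 NC trend. The first definition and the longest transcript were kept as alternatives added after seeing the data.

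The members and gene lists were chosen with earlier results of these data known. Values in every library are given for members called in any comparison, for the 6 highest and 6 lowest in the mean against NC, for catalytic, inducible, activator and inhibitor genes, and for the 3 largest and smallest differences of each RPL pair and of the lines. PSMA4 and PSMB2 were added after their length-corrected values were seen. Promoters came from RefSeq (GRCh38.p14); of 51 starts, 49 continue into a GENCODE transcript of their gene. The windows shown were chosen after values were seen. Some genes of the partner and marker lists are not reported here.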

Additional observations from a re-analysis of the deposited data

Results flagged for a closer look

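A test of the difference between the lines singled out 23 members for their RPL siRNA effect, as a log2 difference from NC (limma, adjusted p under 0.05, where 22.9% of all genes passed). With 1 NC library per line the p-values measure no spread among NC libraries. Values are the effect in HCT116 minus that in HT29. Genes of the core and its chaperones had PSMB10 1.798, PSMG3 1.418, PSMB3 1.206, PSMB6 1.192, PSMA7 1.089, PSMB4 1.041, PSMA5 1.039, PSMA2 0.966, PSMB1 0.946, PSMG2 0.937, PSMB5 0.851, PSMB7 0.831, PSMA3 0.815 and PSMA6 0.673. Genes of the 19S particle had PSMD6 0.842, PSMD4 0.775, PSMC5 0.723, PSMC3 0.649 and PSMC1 0.624, and those of the interferon-inducible cap PSME2 1.057 and PSME1 0.937. The negative values were PSME4 -1.417 and PSMD5 -0.829. All of them carry the single NC library of HT29, whose deviation followed transcript length (Spearman rho of -0.61 over the 47 members). With the length trend removed by the principal transcript 5 members were called, of which PSMA5 and PSMC1 are among the 23. PSMA5 was not called with its accession's transcript length. Leaving out either NC library leaves no such test.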

How the results depend on the processing

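Against NC, the members called were 0 in each of the 4 comparisons under every pseudocount, filter, scaling and length correction tried, and without the line term (no replicate block). For the mean of the RPL siRNAs, 0.035% to 0.581% of all genes were called outside the length corrections. With the principal transcript's length the shares were 7.23% (mean), 4.35% (RPL9), 0.381% (RPL17) and 2.03% (RPL27). With the accession and longest lengths 5.92% and 7% of all genes were called for the mean. Leaving out 1 library gave counts between 0 and 40 (mean of the RPL siRNAs), 35 (RPL9), 38 (RPL17) and 40 (RPL27), the highest value always without HCT116 NC. A fit with 1 NC library holds no spread among NC libraries, so those highest counts are not evidence that members changed. With both NC libraries kept, leaving out any 1 RPL library gave 0 members for the mean of the RPL siRNAs. No paired analysis by replicate number was possible because each group has 1 sample. The block here is the line or the siRNA. Between RPL siRNAs, 1 member (PSMF1) was called for RPL9 against RPL27 at a mean of 5 RPKM or more (3.34% of all genes). For RPL17 against RPL27, 1 (PSMF1) was called at that mean (3% of all genes) and after quantile normalization (2%), and leaving out 1 library gave 0 to 1 there. The difference of effect between lines was called for 23 members as deposited (22.9% of all genes). It was called for 5, 4 and 5 after length correction by the principal, accession and longest transcript (6.64%, 7.84% and 5.97% of all genes), the last 2 chosen after seeing the data. Leaving out 1 RPL library gave 19 to 25 members and 17.6% to 22.1% of all genes. HCT116 against HT29 was called for 17 (22.9% of all genes), and for 8 without the siRNA term (no replicate block, 10.7% of all genes). With 1 library left out it was called for 5 to 17 members and 8.33% to 16.1% of all genes (5 without HCT116 RPL17, 7 without HCT116 RPL27, HT29 RPL17 or HT29 RPL27). In HCT116 the members at least 1.5-fold from NC under all RPL siRNAs numbered 1, and 2 with a pseudocount of 0.1, with length correction by the principal transcript and with that by the longest transcript; 2 to 3 passed with 1 library left out. In HT29 they numbered 22 (26.6% of all genes higher and 13.5% lower), and 37 after median-centring. That moved the median difference over all genes in HT29 from 0.19 to -0.24, so the 37 is not specific to the members. They numbered 11, 8 and 10 after the length corrections (principal, accession, longest). Of all genes, 14.7%, 15.4% and 14.5% were then higher and 14.2%, 14.6% and 14% lower. The HT29 median of -0.633 was -1.055 after median-centring, which shifts all HT29 differences by 0.42, and -0.342, -0.375 and -0.271 after the length corrections. Over all alternatives to 17 single-gene values, which do not include every value printed above, 0 changed sign. Other values did change sign. The PSMB10 mean against NC was -0.83 without the NC library of HCT116 and 0.97 without that of HT29. The PSMD12 mean, positive as deposited, was -0.06 after the length correction by the principal transcript. The differences of effect of USP14 and KIAA0368, negative as deposited, were then 0.03 and 0.53. Depth was an estimate only, and 1 library per line and siRNA limits every value.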
